A study of Mus musculus with 8 samples.

Results

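Transcript counts of 33 genes of glucose uptake, glycolysis and glycogen handling were examined in muscle stem cells (MuSCs) of old mice, out of 55487 gene identifiers in the count table. The genes were selected by name, muscle and ubiquitous isoforms together, for the comparison of NAM/PN-treated with control cells, with that comparison already in view, so their values in it are a description and carry no test. MuSCs were isolated by FACS from hindlimb muscle of aged wild-type C57BL/6JRj male mice and grown for 72 hours, from seeding onward, in growth medium with 1% DMSO as vehicle or with nicotinamide (NAM, a form of vitamin B3) and pyridoxine (PN, a form of vitamin B6) combined, at a final concentration of 1 mM. Each condition had 4 libraries, 1 from each of 4 pools of 2 mice, and each pool gave cells to both conditions. A concentration for each compound alone was not given in the sources used here. The cells had left their niche and grown in culture for the whole treatment, and each library is an average over the mice of a pool.

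Glycolysis splits glucose into pyruvate in the cytosol and yields ATP and NADH, and lactate dehydrogenase returns NADH to NAD+ by turning pyruvate into lactate. Muscle fibres express their own isoforms of several enzymes beside those found in most tissues, and they store glucose as glycogen and break it down by phosphorylase when they contract. Growing myoblasts use the ubiquitous isoforms, and the muscle isoforms are known to appear as myoblasts leave the cell cycle and differentiate.

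Library totals were between 6472484 and 10163101 counts. The libraries were made from the 3′ end of transcripts, so a count is not divided by gene length and levels are compared for 1 gene across libraries, not between genes. Levels are given as CPM, counts per 1000000 of the library size after normalization by the trimmed mean of M-values. A count of 3, taken as the floor of detection, came to between 0.280 and 0.457 CPM. Floors and the exact intervals of isoform shares cover counting error only. Intervals of log2 fold changes also hold the spread between libraries. The markers of MuSCs and myoblasts were present. Pax7 averaged 196 CPM with vehicle and 173 CPM under NAM/PN, and Myf5 averaged 41.4 and 25.8 CPM. NAM/PN 4 was the deepest library and stood apart, with the fewest genes detected, 12483 against 12939 to 14472 in the others, and the lowest share of mitochondrial counts, 2.56% against 3.73% to 7.54%. Vehicle 3 stood apart too, with 18.7% of its counts on the 1 rRNA gene measured, against 5.22% to 11.6% in the others. Within the groups, the chi-square of counts for each degree of freedom was 64.4 to 82.2 for vehicle 3 against the other vehicle libraries and 67.4 to 78.6 for NAM/PN 4 against the other NAM/PN libraries, beside 22.8 to 28.3 among the rest.

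Of the 33 genes, 28 had enough counts to enter the fit across 12060 genes. The log2 fold change of NAM/PN over vehicle was negative for 18 of them and positive for 10, with a median of -0.18, beside a median of -0.0022 over all genes tested. The genes that did not enter were Slc2a4, Aldoc, Gapdh, Phkg1 and Fbp2. Under edgeR's quasi-likelihood test 1.28% of all tested genes were called at an adjusted p under 0.05, that is 0.995% lower and 0.282% higher with NAM/PN, and 9.28% had an unadjusted p under 0.05. DESeq2 called 2.4% of all tested genes. Among the 28 genes 1 was called, Pgm5, which was lower, and 2 were called with the pool as a replicate block, Pgm5 and Pgam2, where 1.29% of all tested genes were called. All NAM/PN libraries lay below all vehicle libraries for 3 of the 28 genes, Hk1, Pgam2 and Pgm5, as they did for 4.42% of all tested genes, and all lay above for 0 of 28, beside 2.79% of all tested genes. Nothing is read from these counts, since the genes were chosen on this contrast.

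**Figure D1:**
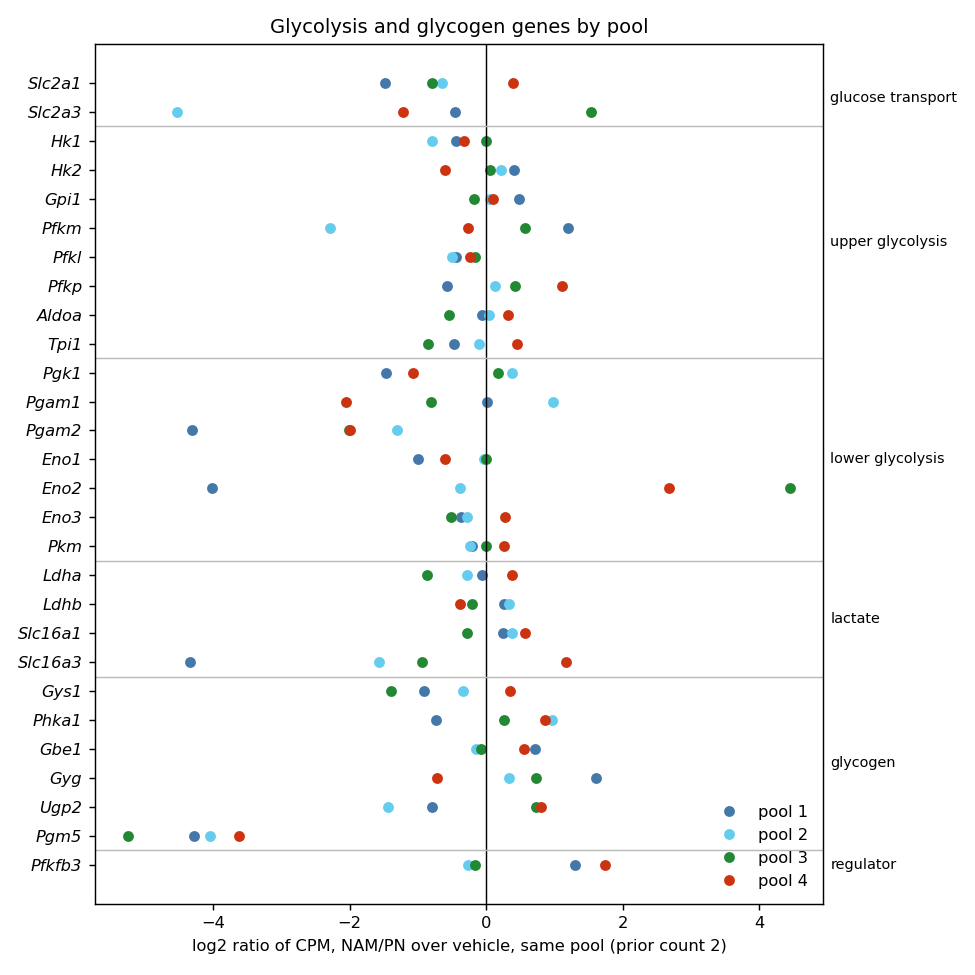
Log2 ratio of CPM, NAM/PN over vehicle within each pool of mice, for the 28 genes that entered the fit, grouped by role; each point is 1 pool and the log uses a prior count of 2. Hk1, Pfkl, Pgam2, Eno1 and Pgm5 lie left of 0 in all 4 pools, Hk1 and Eno1 only just in pool 3, and the pool 4 points lie right of 0 for 16 of the 28 genes.

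Glucose enters cells through facilitative carriers. Slc2a1, the carrier GLUT1 of most growing cells, measured 66.0, 67.5, 41.7 and 43.0 CPM in vehicle pools 1 to 4 and 23.4, 42.9, 24.1 and 56.4 CPM in NAM/PN pools 1 to 4. It was lower with NAM/PN in pools 1 to 3 and higher in pool 4, and the groups overlapped, with a log2 fold change of -0.57 ± 0.31 (SE, n = 4 per group). Slc2a3, the high-affinity carrier GLUT3, had at most 6.42 CPM in any library and was at 0 in vehicle 3 and NAM/PN 2. Slc2a4, the insulin-regulated carrier GLUT4 of muscle and fat, had 21 counts, all in vehicle 2, and a count of 0 in the other 7 libraries.

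Hexokinases trap glucose in the cell as glucose 6-phosphate, with Hk1 the form of most tissues and Hk2 the form typical of insulin-responsive muscle. Hk1 measured 113, 148, 100 and 115 CPM in the vehicle libraries and 83.3, 85.4, 99.9 and 91.3 CPM in the NAM/PN libraries. The groups did not overlap, but vehicle 3 and NAM/PN 3 differed by less than 1 CPM, and the log2 fold change was -0.40 ± 0.19. Hk2 averaged 47.1 ± 7.09 CPM (SD, n = 4) with vehicle and 49.4 ± 16.0 with NAM/PN, and 3 of 4 pools were higher with NAM/PN. The next enzyme, glucose-6-phosphate isomerase, is encoded by Gpi1, which averaged 219 ± 30.7 and 236 ± 24.9 CPM.

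Phosphofructokinase commits sugar to glycolysis, and its subunits come from a muscle gene, Pfkm, a liver gene, Pfkl, and a platelet gene, Pfkp. Pfkm measured 10.8, 32.3, 11.7 and 21.1 CPM with vehicle and 25.0, 6.41, 17.5 and 17.5 CPM under NAM/PN. It was higher with NAM/PN in pools 1 and 3 and lower in pools 2 and 4. Pfkl was lower with NAM/PN in all 4 pools, at 49.4, 46.4, 31.8 and 54.9 against 67.3, 66.0, 35.6 and 64.7 CPM, although the groups overlapped through vehicle 3. Pfkp averaged 32.7 ± 4.70 CPM with vehicle and 41.6 ± 16.1 with NAM/PN, and its highest value, 61.8 CPM, was in NAM/PN 4.

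Aldolase and triose phosphate isomerase split the six-carbon sugar and interconvert the products. Aldoa, the aldolase of muscle and growing cells, measured 890 to 1158 CPM with vehicle and 772 to 1446 CPM under NAM/PN (log2 fold change -0.03 ± 0.18). The sign of the Aldoa value changed with single libraries, from -0.25 without NAM/PN 4 to 0.08 without NAM/PN 3. Aldoc, the brain form, was detected in 1 vehicle library and 2 NAM/PN libraries, at no more than 8.76 CPM. Tpi1 ranged over 146 to 175 CPM with vehicle and 90.9 to 204 CPM under NAM/PN, where pools 1 to 3 were lower than vehicle and pool 4 was higher.

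The lower part of glycolysis harvests ATP and NADH. Gapdh, the dehydrogenase that opens it and a usual housekeeping reference, had only 65 counts in all 8 libraries, with 0 in 3 of them. The last 300 bases of its transcripts matched 87 other annotated loci over at least 100 bases at 97% identity or more, 83 of them pseudogenes, and these loci together held 297 counts. Gapdh also overlaps Iffo1, a gene on the opposite strand with 3384 counts. How reads that fit several places were counted was not given in the sources used here, so this count is no measure of Gapdh expression. Such copies also existed for Gpi1, Aldoa, Tpi1, Eno1, Pkm, Ldha, Ldhb and Phkg1, whose counts are uncertain to that extent. Pgk1, the first ATP-making kinase, measured 28.1, 13.4, 9.39 and 14.2 CPM with vehicle and 9.97, 17.4, 10.7 and 6.63 with NAM/PN, lower in 2 pools and higher in 2.

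Phosphoglycerate mutase moves the phosphate of 3-phosphoglycerate, and its muscle subunit gene Pgam2 (ENSMUSG00000020475, chr11:5801640-5803733, minus strand, GRCm38) had the most negative log2 fold change of the glycolytic enzymes. Pgam2 measured 24.2, 32.6, 29.0 and 42.2 CPM in the vehicle libraries and 0.985, 13.1, 7.00 and 10.4 CPM in the NAM/PN libraries. Every NAM/PN library lay below every vehicle library, NAM/PN 1 lowest with 8 counts, and the mean of 32.0 ± 7.64 CPM compared with 7.86 ± 5.22, a log2 fold change of -2.02 ± 0.54. Pgam1, the mutase of most tissues, was at 4.14 to 10.6 CPM with vehicle and 1.68 to 8.78 CPM under NAM/PN (log2 fold change -0.38 ± 0.88) with groups that overlapped. Single libraries moved the Pgam1 value, to -0.77 without NAM/PN 2 and -0.08 without vehicle 3.

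The bases before the start of both mutase genes are shown because the libraries of the groups overlapped for Pgam1 and not for Pgam2. They are the 250 bases upstream of the RefSeq start on GRCm38.p6, 5′ to 3′ on the gene's strand, at chr11:5803797-5804046 (minus strand) for Pgam2 and chr19:41911621-41911870 (plus strand) for Pgam1. Capitals mark the E-boxes CAGCTG and CACCTG on either strand (CACCTG reads CAGGTG on the other), the kind of site that myogenic bHLH factors such as MYOD and myogenin bind.
Pgam2: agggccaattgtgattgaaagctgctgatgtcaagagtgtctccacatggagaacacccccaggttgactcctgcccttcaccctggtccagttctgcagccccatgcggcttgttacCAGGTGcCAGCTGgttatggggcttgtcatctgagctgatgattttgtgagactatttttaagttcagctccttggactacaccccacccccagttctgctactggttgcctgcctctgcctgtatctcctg
Pgam1: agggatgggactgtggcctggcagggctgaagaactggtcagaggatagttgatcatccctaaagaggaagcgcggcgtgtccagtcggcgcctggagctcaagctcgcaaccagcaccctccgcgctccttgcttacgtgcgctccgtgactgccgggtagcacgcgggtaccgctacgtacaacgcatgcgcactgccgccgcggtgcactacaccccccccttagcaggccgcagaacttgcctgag
The Pgam2 window held CAGCTG beginning 125 bases before the start, CACCTG 132 bases before it and a match to the MEF2 consensus, the site of another family of muscle factors, 80 bases before it. The Pgam1 window held none of the 3. These distances are from the RefSeq start. Both windows lie outside the GENCODE gene, and the bases just after the RefSeq start were not found in GENCODE transcripts of these genes. Over all 32851 RefSeq windows of this length 13.0% held CAGCTG, 17.2% held CACCTG and 2.92% held the MEF2 consensus, so a match is a description of these letters and not a shown binding site.

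Enolase has a ubiquitous gene, Eno1, a neuronal gene, Eno2, and a muscle gene, Eno3. Eno3 measured 507, 564, 502 and 556 CPM with vehicle and 395, 462, 350 and 672 CPM under NAM/PN, lower than vehicle in pools 1 to 3 and highest of all in NAM/PN 4. Its log2 fold change was -0.18 ± 0.19, with a 95% interval from -0.57 to 0.21, while that of Pgam2, the muscle isoform of the step just before, was -2.02 with an interval from -3.15 to -0.90. Single libraries moved the Eno3 value, to -0.40 without NAM/PN 4, -0.11 without NAM/PN 1 and -0.06 without NAM/PN 3. Eno1 was lower with NAM/PN in all 4 pools, by 132 against 65.9 CPM in pool 1 but by less than 3 CPM in pools 2 and 3, a log2 fold change of -0.39 ± 0.21. Eno2 stayed at or below 5.03 CPM. Pkm, whose product makes pyruvate and the last ATP, averaged 1510 ± 142 CPM with vehicle and 1473 ± 256 with NAM/PN (log2 fold change -0.04 ± 0.15). The Pkm value was -0.17 without NAM/PN 4 and 0.02 without NAM/PN 3.

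Lactate dehydrogenase and the monocarboxylate carriers dispose of pyruvate. Ldha, the muscle-type subunit, measured 566, 550, 683 and 503 CPM with vehicle and 541, 452, 376 and 655 CPM under NAM/PN, again lower in pools 1 to 3 and higher in pool 4. Ldhb, the heart-type subunit, averaged 16.1 ± 1.31 and 16.6 ± 4.54 CPM. Slc16a1, the carrier MCT1, averaged 98.3 ± 24.4 CPM with vehicle and 113 ± 12.8 with NAM/PN. Slc16a3, the lactate exporter MCT4, was at 4.62, 8.31, 11.4 and 3.16 CPM with vehicle and 0, 2.65, 5.79 and 7.38 CPM under NAM/PN, in pool order, so that 3 pools were lower and 1 was higher.

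Glycogen is begun by glycogenin (Gyg), extended by glycogen synthase (Gys1) from the UDP-glucose that Ugp2 makes, and branched by Gbe1. Gys1 measured 77.7, 64.5, 113 and 67.0 CPM with vehicle and 41.2, 50.7, 42.6 and 85.1 CPM under NAM/PN, lower in pools 1 to 3 and higher in pool 4, with a log2 fold change of -0.55 ± 0.27. That value became -0.84 without NAM/PN 4 and -0.35 without vehicle 3. Gbe1 averaged 52.2 ± 17.0 and 60.4 ± 6.62 CPM, Gyg 12.4 ± 6.81 and 16.7 ± 6.53 CPM, and Ugp2 23.6 ± 12.1 and 19.3 ± 5.33 CPM. The groups overlapped for all 3. Phka1, the muscle alpha subunit of phosphorylase kinase, averaged 13.6 ± 5.11 CPM with vehicle and 17.6 ± 7.84 with NAM/PN. Phkg1, its muscle catalytic subunit, was at 0 in all 8 libraries, and its locus overlaps Chchd2 on the same strand, a gene with 134158 counts, and Sumf2 and Zbed5 on the opposite strand. Gys1, Pfkm, Pfkp and Tpi1, like Gapdh, each overlap a gene on the opposite strand, and Pkm and Slc16a1 each overlap a gene on the same strand, with 457 and 305 counts. The strand setting of the counting was not given in the sources used here.

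Pgm5 (ENSMUSG00000041731, chr19:24683016-24861855, minus strand) had the most negative log2 fold change of the 28 genes. It belongs to the phosphoglucomutase family by sequence, but its product, aciculin, is known from cell-matrix adhesion sites of muscle and is regarded as lacking mutase activity. It measured 16.5, 24.4, 8.89 and 24.6 CPM with vehicle and 0.615, 1.25, 0 and 1.77 CPM under NAM/PN, from 72 to 226 counts a library against 0 to 19. The groups did not overlap, and the log2 fold change was -4.30 ± 0.84 with a 95% interval from -6.06 to -2.53. Without vehicle 2 or without vehicle 4 it was no longer called, with log2 fold changes of -4.15 in both fits. edgeR then called 0 of 29 of these genes in each case, with 3 of 29 at an unadjusted p under 0.05. Over all genes it called 80 of 12524 and 87 of 12528, with 973 and 982 at an unadjusted p under 0.05.

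Glycogen is broken down by phosphorylase, and the other genes of glycogen handling that are not among the 33 were read from a list of 24, of which 15 entered the fit and 1 was called, against 0.995% of all genes called lower. That gene was Pygm (ENSMUSG00000032648, chr19:6384399-6398459, plus strand), the muscle glycogen phosphorylase. It measured 40.3, 56.5, 72.7 and 54.2 CPM with vehicle and 7.14, 19.8, 7.16 and 17.7 CPM under NAM/PN. It fell in 4 of 4 pools, with groups that did not overlap and a log2 fold change of -2.11 ± 0.37. Its adjusted p was 0.00405 in edgeR's quasi-likelihood test. Pygb, the brain form of the enzyme, averaged 24.1 ± 5.91 CPM with vehicle and 29.5 ± 9.64 CPM under NAM/PN and is given as its paralog, chosen after its value was seen. Of the remaining 14 genes, Pygb included, the log2 fold change was negative for 9 and positive for 5, from -0.90 to 0.41.

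The windows before the starts of Pgm5 and Pygm are shown because of their log2 fold changes. Pgm5 had the most negative of the members listed under glycogen, where it stands by sequence family only. Pygm had the most negative of the other glycogen genes. They lie at chr19:24861843-24862092 (minus strand) and chr19:6384158-6384407 (plus strand) on GRCm38.p6, again the 250 bases before the RefSeq start with E-boxes in capitals, and their last 13 and 9 bases lie inside the GENCODE gene.
Pgm5: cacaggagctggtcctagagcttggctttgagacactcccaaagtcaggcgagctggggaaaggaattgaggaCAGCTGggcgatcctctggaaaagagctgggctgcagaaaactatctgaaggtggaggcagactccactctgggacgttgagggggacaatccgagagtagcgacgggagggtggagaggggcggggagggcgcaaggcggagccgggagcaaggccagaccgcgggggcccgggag
Pygm: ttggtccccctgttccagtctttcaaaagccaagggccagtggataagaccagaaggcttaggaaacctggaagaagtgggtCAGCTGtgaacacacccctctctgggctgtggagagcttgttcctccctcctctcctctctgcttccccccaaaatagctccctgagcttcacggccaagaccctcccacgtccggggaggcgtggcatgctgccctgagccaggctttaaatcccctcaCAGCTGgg
Pgm5 held CAGCTG 177 bases before the start, and Pygm held it 168 and 8 bases before the start. A RefSeq window was found for 31 of the 33 genes, 44 windows in all, since some genes have several starts whose windows can overlap. CAGCTG was present in 8 of the 44 windows (18.2%), CACCTG in 8 (18.2%) and the MEF2 consensus in 1, that of Pgam2. The letters ACGTG, the core of hypoxia response elements and also part of the E-box CACGTG, were in 16 of 44 windows (36.4%) of 13 genes, Ldha, Pgk1, Pkm, Slc2a1 and Hk2 among them, against 16.6% of all windows. The antioxidant element letters TGACNNNGC were in 3 of 44 windows (6.82%), those of Aldoa, Hk1 and Slc16a1, against 10.2% of all windows. Each motif was searched on both strands.

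**Figure D2:**
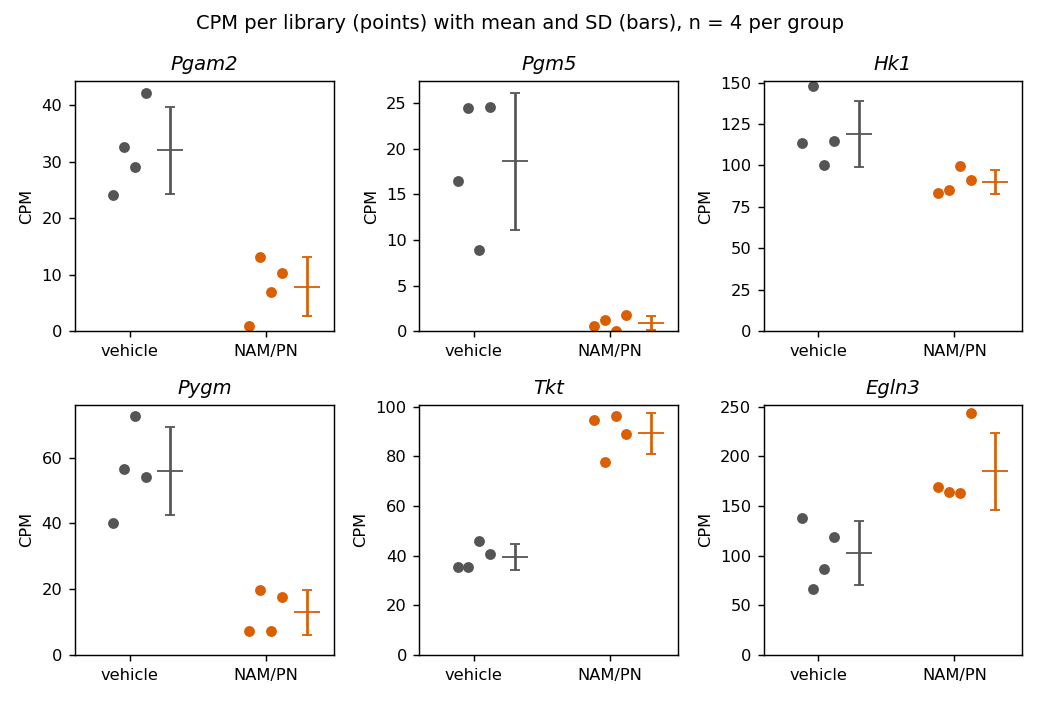
CPM in each library (points, pool 1 to 4 from left to right) with mean and SD (bar), n = 4 per group, for Pgam2, Pgm5, Hk1, Pygm, Tkt and Egln3; each axis starts at 0. The groups do not overlap in any of the 6 panels, and NAM/PN lies below vehicle for Pgam2, Pgm5, Hk1 and Pygm and above it for Tkt and Egln3.

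Among regulators, Fbp2, the muscle fructose bisphosphatase that runs the phosphofructokinase step backward, had 20 counts, all in vehicle 3. Pfkfb3, whose product makes the phosphofructokinase activator fructose 2,6-bisphosphate, averaged 4.65 ± 2.30 CPM with vehicle and 7.51 ± 3.15 with NAM/PN, with pools 1 and 4 higher and pools 2 and 3 lower.

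The share of 1 isoform in the summed counts of its paralogs in the same library does not depend on library size. Pgam2 made up 85.4%, 88.3%, 73.2% and 84.5% of the mutase counts with vehicle, and 19.0%, 59.9%, 54.1% and 86.0% with NAM/PN. It was lower in pools 1 to 3 and not in pool 4, where Pgam1 itself was low, and the mean went from 82.8% ± 6.61 to 54.8% ± 27.6. The difference in means was -28.1 percentage points with all libraries and -16.2 without NAM/PN 1, whose exact 95% interval was 8.60% to 34.1% on 42 counts. Eno3 held 82.0% ± 2.12 of the enolase counts with vehicle and 83.2% ± 5.57 with NAM/PN. That difference of 1.18 percentage points was within the spread of the NAM/PN libraries and moved with single libraries, from 3.34 without NAM/PN 3 to -0.91 without NAM/PN 4, with 0.13 without vehicle 1 and 0.34 without NAM/PN 1. Eno1 had near-identical copies at other loci and Eno3 had none, so the Eno3 share is uncertain to that extent. Pfkm held 16.7% ± 5.84 and 16.3% ± 8.23 of the phosphofructokinase counts, a difference whose sign changed with the library left out, between -3.58 and 2.76 points. Hk2 went from 28.7% ± 6.18 to 34.9% ± 8.16 of hexokinase counts, higher in 3 pools and lower in pool 4. The difference of 6.15 points became 2.90 without NAM/PN 1, 3.38 without vehicle 2 and 9.52 without NAM/PN 4. Slc16a3 went from 6.41% ± 2.82 to 3.22% ± 2.48 of the counts of both carriers, and the difference of -3.19 points became -2.12 without NAM/PN 1 or without vehicle 2. Ldhb was between 1.74% and 4.05% of lactate dehydrogenase counts in all libraries. These shares are of counts at the 3′ end and are given with no test.

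**Figure D3:**
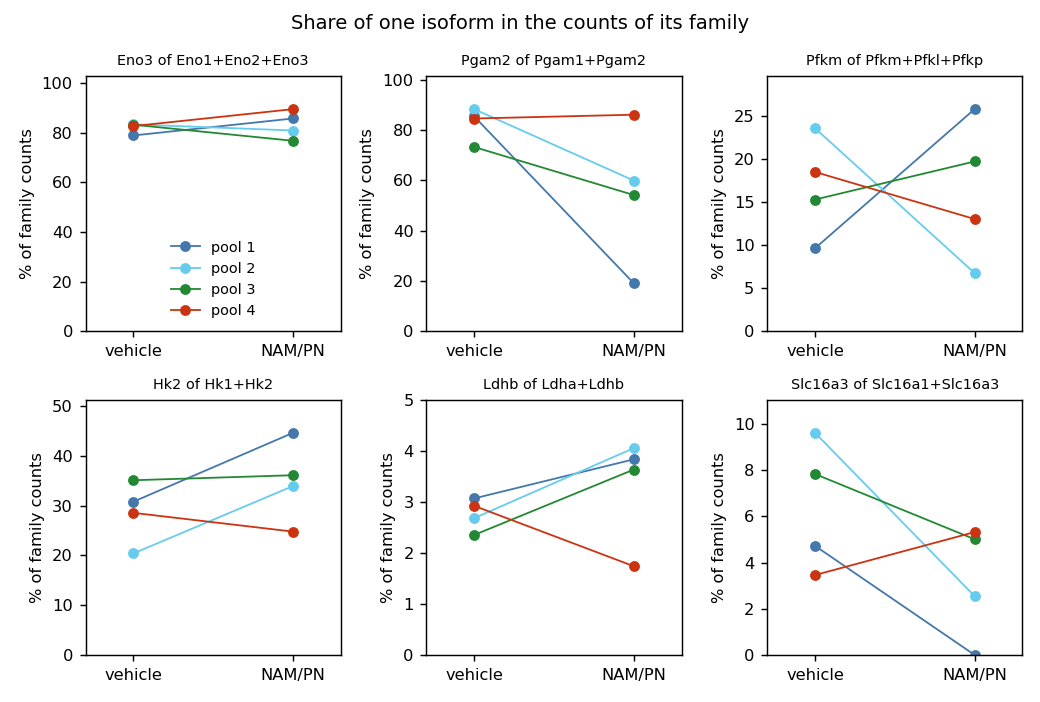
Share of 1 isoform in the summed counts of its family (percent, axis from 0), with a line joining the vehicle and NAM/PN libraries of each pool. The Pgam2 line drops in pools 1 to 3 and is nearly level in pool 4, while the Eno3 share stays between 76.7% and 89.5% in all 8 libraries.

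Pools differed in how these genes moved together. Within pools, 19, 18 and 19 of the 28 genes were lower with NAM/PN in pools 1, 2 and 3, with median log2 ratios of -0.44, -0.25 and -0.16, whereas in pool 4 12 were lower and 16 higher, with a median of 0.27. Over all tested genes the median log2 ratio was between -0.05 and 0 in every pool. The summed level of the upper glycolysis genes was 1586 to 1816 CPM with vehicle, 1333 to 1549 CPM in NAM/PN 1 to 3 and 2161 CPM in NAM/PN 4. For the lower glycolysis genes it was 1954 to 2312 CPM with vehicle, 1779 to 1955 CPM in NAM/PN 1 to 3 and 2621 CPM in NAM/PN 4. These sums mostly follow 1 gene each, since Aldoa made up 56.1% to 66.9% of the upper sum and Pkm 66.6% to 74.5% of the lower one. Without Aldoa the upper sum was 618, 697, 650 and 658 CPM with vehicle and 620, 595, 561 and 715 CPM under NAM/PN, no longer lower in pool 1. Without Pkm the lower sum was 701, 727, 653 and 740 CPM with vehicle and 477, 611, 480 and 769 CPM under NAM/PN, again lower in pools 1 to 3. The summed glycogen genes include Pgm5. Gys1 made up 24.8% to 53.1% of their sum, which without Gys1 was lower with NAM/PN in pool 2 and higher in the other 3. Without NAM/PN 4 the median log2 fold change of the 28 genes was -0.29, without NAM/PN 3 it was -0.06 and without vehicle 2 it was -0.11. Without NAM/PN 4, and likewise without vehicle 3, the called gene was again Pgm5, and Pygm and Tkt were the 2 other pathway genes called. The depth and the low number of genes detected in NAM/PN 4 move with its high glycolytic levels. With all libraries thinned to the smallest, the median log2 fold change of the 28 genes was -0.19. The part of the low number of genes detected was not tested.

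The summed level of differentiated myocyte markers was lower with NAM/PN in every pool. All 16 tested genes of that list had a negative log2 fold change, from -3.03 to -0.00097 with a median of -2.30, and 10 were called lower, beside 0.995% of all genes. Their summed level was 1954 to 3815 CPM with vehicle and 435 to 1038 CPM under NAM/PN, and Myog, the regulator of myoblast differentiation, fell from 929 to 199 CPM. Of the 8 tested genes of the MuSC and myoblast list, 0 were called by edgeR or DESeq2 and 1 had an unadjusted p under 0.05, beside 9.28% of all genes, with 7 negative log2 fold changes and a median of -0.18. Their summed level was 2909 to 3373 CPM with vehicle and 2335 to 2929 CPM under NAM/PN, and it too was lower with NAM/PN in all 4 pools. The summed myocyte level was lower with NAM/PN in all 4 pools, as were Pgam2, Pgm5, Pygm, Hk1, Pfkl and Eno1. These genes are named here because each was lower in every pool, so the shared direction carries no weight. Hk1 and Eno1 were lower only just in pool 3, and the summed glycolysis genes were higher with NAM/PN in pool 4. Fewer differentiated cells and less of each RNA per cell cannot be told apart in these bulk libraries, and the part of the myocyte genes in the result was not tested. Of other cell types, Pdgfra, Lum and Ptprc had 0 counts, Dcn had 2, and Pecam1, Cdh5, Pdgfrb and Rgs5 averaged below 1 CPM in both groups. The summed fibro-adipogenic list was at 341 to 462 CPM with vehicle and 138 to 1202 CPM under NAM/PN, with 2 genes called lower (Col3a1 and Gsn) of 4 tested. All 4 had an unadjusted p under 0.05. The sum was higher with NAM/PN in pools 1 and 2 and lower in pools 3 and 4. Col1a1 was not called (log2 fold change 4.97, adjusted p = 0.0709 in edgeR's quasi-likelihood test) and was at 486 and 1032 CPM in NAM/PN 1 and 2 and at no more than 41.3 CPM in the other libraries. The mural list was at 973 to 1548 CPM with vehicle and 608 to 883 CPM under NAM/PN, with 1 called lower (Acta2) of 5. It was lower with NAM/PN in all 4 pools. Des is on both this list and the MuSC and myoblast list, so the sum is not a measure of mural cells alone. The endothelial list stayed at or below 29.6 CPM and the immune list at or below 7.58 CPM, each with 1 gene tested and 0 called by edgeR or DESeq2 or at an unadjusted p under 0.05. The endothelial sum was higher with NAM/PN in all 4 pools. The immune sum was lower in pools 1 and 2 and higher in pools 3 and 4.

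**Figure D4:**
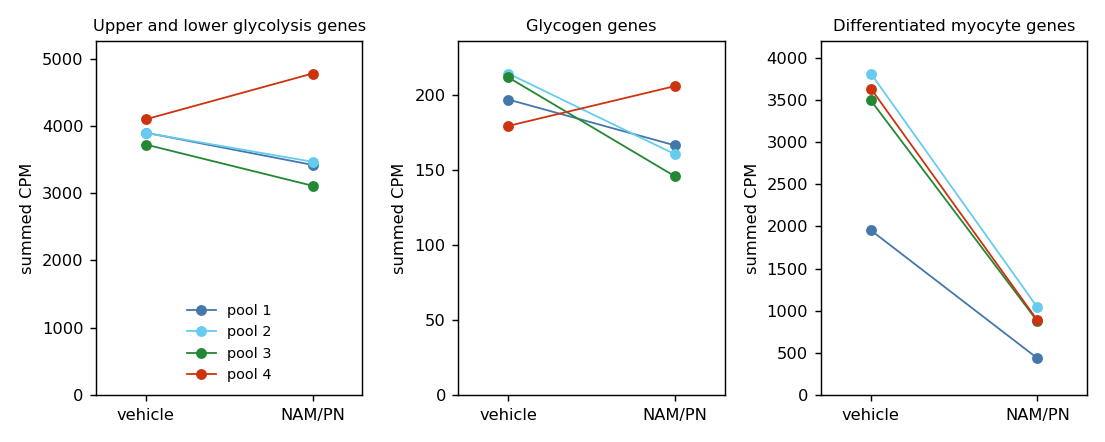
Summed CPM (axis from 0) of the upper and lower glycolysis genes, the glycogen genes (Pgm5 included) and the differentiated myocyte markers, with a line joining the vehicle and NAM/PN libraries of each pool. The glycolysis and glycogen lines fall in pools 1 to 3 and rise in pool 4, and the myocyte lines fall in all 4 pools, from 1954 to 3815 CPM down to 435 to 1038 CPM.

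Of 110 other genes of glucose handling, in 5 lists, 86 entered the fit, 1 was called lower, Pygm, and 1 was called higher, Tkt, beside 0.995% and 0.282% of all genes. DESeq2 called 5 of the 86, Pygm, Tkt, Rpia, Taldo1 and Egln3, beside 2.4% of all genes, and on simulated data it called more unchanged genes than edgeR did. Glucose 6-phosphate can leave glycolysis for the pentose phosphate pathway, which makes NADPH and ribose for nucleotides, and transketolase (Tkt; ENSMUSG00000021957, chr14:30548359-30574720, plus strand) links its sugars back to glycolysis. Tkt measured 35.4, 35.2, 46.1 and 40.8 CPM with vehicle and 94.5, 77.9, 96.1 and 88.9 CPM under NAM/PN. It rose in 4 of 4 pools with no overlap, by a log2 fold change of 1.18 ± 0.22, with an adjusted p of 0.00516 in edgeR's quasi-likelihood test.

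The other pentose phosphate enzymes, named here after their values were seen, also had positive log2 fold changes, 0.19 for G6pdx, 0.65 for H6pd, 0.60 for Pgls, 0.55 for Pgd, 1.67 for Rpia, 0.33 for Rpe and 0.65 for Taldo1. None of these 7 passed the adjusted threshold in the edgeR fit of all 8 libraries with the filter on low counts. edgeR called Rpia without NAM/PN 2, and Rpia and Taldo1 with no filter. The libraries did not overlap for Pgd (257 to 315 CPM with vehicle, 351 to 539 with NAM/PN), for Rpia (5.43 to 14.8 and 20.6 to 54.6 CPM) and for Taldo1 (132 to 240 and 265 to 360 CPM). With Tkt these were 4 of the 15 genes of their list, beside 2.79% of all genes, and 5 of the 15 had an unadjusted p under 0.05, beside 9.28%. For Rpia, the isomerase that makes ribose 5-phosphate, the adjusted p was 0.0579. In pool 4, Pgd, Pgls, Rpia, Rpe and Taldo1 each had their highest NAM/PN value. The hexosamine and polyol genes of the same list of 15, such as Gfpt1 and Sord, were on both sides of 0, and 10 of the 15 were positive.

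**Figure D5:**
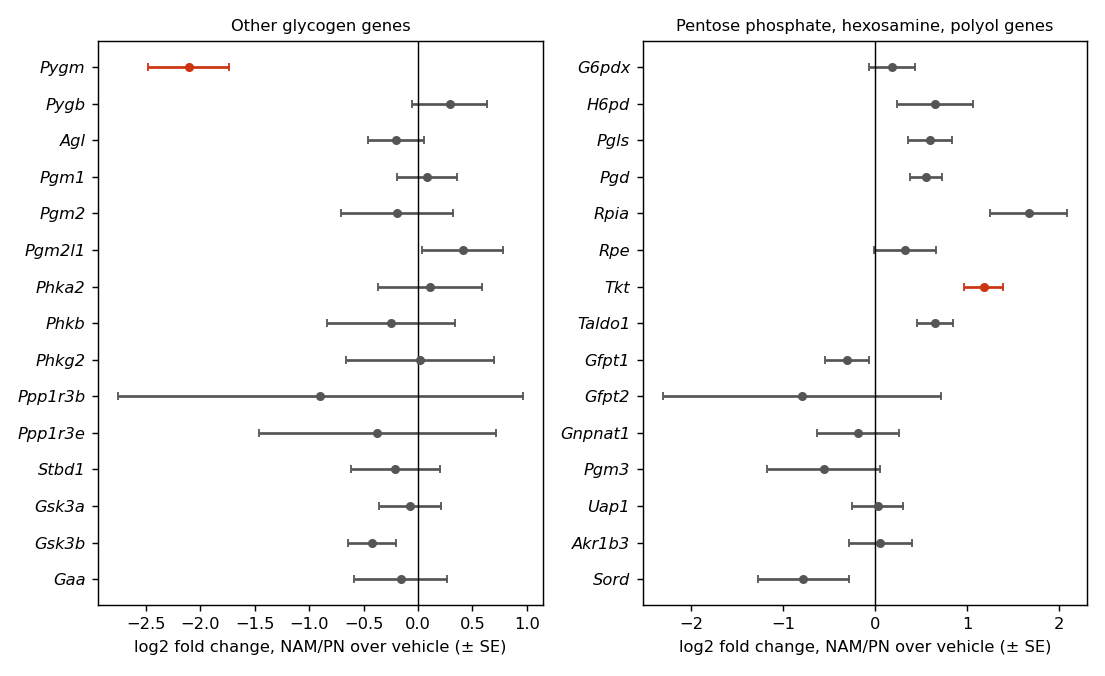
Log2 fold change of NAM/PN over vehicle with its SE (bars) for 15 other glycogen genes and 15 pentose phosphate, hexosamine and polyol genes; red marks an adjusted p under 0.05 in edgeR's quasi-likelihood test. Pygm stands alone on the left at -2.11, and G6pdx to Taldo1 all lie right of 0, with Tkt in red at 1.18.

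The other lists had 0 genes called by edgeR, and their counts at an unadjusted p under 0.05 stand beside 9.28% of all genes. Of 17 tested genes of further glycolytic isoenzymes and sugar entry, 1 had an unadjusted p under 0.05, Adpgk, the ADP-dependent glucokinase, at 17.3 ± 6.25 CPM with vehicle and 34.7 ± 6.28 with NAM/PN (log2 fold change 1.00 ± 0.35) with libraries that did not overlap and an adjusted p of 0.261. Adpgk overlaps Bbs4 on the opposite strand. DESeq2 called 0 of these 17. Of 14 tested genes around pyruvate dehydrogenase, 0 had an unadjusted p under 0.05 and DESeq2 called 0. The one with the smallest p, Pdk1, a kinase that switches the complex off, averaged 6.88 ± 3.68 and 2.00 ± 1.66 CPM, with an adjusted p of 0.784. Of 25 tested regulators of glucose and oxygen response, 2 had an unadjusted p under 0.05, and the smallest was that of Egln3, a prolyl hydroxylase that marks hypoxia-inducible factors for degradation and is itself one of their targets. Egln3 measured 138, 66.8, 86.3 and 119 CPM with vehicle and 170, 165, 163 and 243 CPM under NAM/PN, higher in 4 of 4 pools with no overlap, a log2 fold change of 0.85 ± 0.23. Its adjusted p was 0.0771 in edgeR's quasi-likelihood test, 0.0408 with the pool as a replicate block and 0.0220 in DESeq2, within a range of 0.00429 to 0.312 over all alternatives.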

How the data were processed

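The deposited table holds whole-number read counts for each gene in 8 libraries (4 vehicle, 4 NAM/PN) made with a QuantSeq 3′ kit, without normalization. Per the labels, HTSeq 2.16.2 and GRCm38 were used, and the methods describe demultiplexing with Bcl2FastQ and alignment with RNASTAR. How multimapping reads and strand were handled was not given in the sources used here.

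Counts were filtered (filterByExpr, minimum count 10, minimum total 15), scaled by TMM and fitted in edgeR 4.0.16 (R 4.3.3) by the quasi-likelihood test without a block, on all 12060 genes that passed, with Benjamini-Hochberg adjustment and a threshold of 0.05. DESeq2 1.42.0 was an alternative. The tests were first run on simulated data, where DESeq2 called more unchanged genes than edgeR at this threshold. SE is the log2 fold change over the root of its F statistic, and log2 ratios within pools used a prior count of 2. Names and positions came from GENCODE M21, which held 55227 of 55487 identifiers and 12058 of the tested genes, promoter windows from RefSeq (GRCm38.p6), and near-copies from blastn 2.17.0 on the last 300 bases of transcripts.

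The members and lists were chosen with earlier results of these data known. Named genes were all 33 members and, from each of 5 lists of other pathway genes, those called or, where none was, the one with the smallest p. The pool number pairs libraries because the same mice gave both conditions. Deviations of paired libraries from their group means correlated at -0.011, 0.014, -0.033 and 0.031. Replicate libraries are separate pools of mice, and every pair within a group differed by more than sampling noise (chi-square of 22.8 or more for each degree of freedom).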

Additional observations from a re-analysis of the deposited data

Results flagged for a closer look

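In 10 of 87 sets of 4 libraries (a gene or an isoform share in 1 group) the highest or lowest library lay far from the other 3 by Dixon's criterion at 95%, where chance alone gives about 4.35. Transcripts at the edge of detection made up several. Slc2a4 was at 2.61 CPM in vehicle 2, Fbp2 at 2.47 CPM in vehicle 3 and Aldoc at 8.76 CPM in vehicle 1, with 0 in the other vehicle libraries, and the shares of Slc2a4 (3.45% of carrier counts) and Aldoc (0.894% of aldolase counts) in those libraries follow from the same counts.

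Pfkl was at 35.6 CPM in vehicle 3, against 64.7 to 67.3 CPM in the other vehicle libraries. Gyg was at 22.5 CPM in vehicle 4, against 8.40 to 10.1 CPM, and at 26.5 CPM in NAM/PN 1, against 12.7 to 14.2 CPM. The Eno3 share was 78.9% in vehicle 1, against 82.6% to 83.3%. Egln3 was at 243 CPM in NAM/PN 4, against 163 to 170 CPM in the other NAM/PN libraries.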

How the results depend on the processing

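The replicate block (the pool as a term) and DESeq2 each called 2 of the 28 genes tested, Pgam2 and Pgm5, in place of 1, Pgm5. No filter on low counts called the same 2, of 32 tested. Of the other pathway genes DESeq2 called 5 of 86 and no filter 5 of 98 (Egln3, Pygm, Rpia, Taldo1 and Tkt). These compare with 2 of 86 in the main fit and 3 of 86 with the replicate block. Over all genes 154 of 12060 were called, 289 of 12060 with DESeq2, 366 of 19244 with no filter and 156 of 12060 with the replicate block. The block changed no call of a gene named by the rule other than Pgam2 and Egln3. RLE size factors called 1 of the 28 genes, 2 of 86 other pathway genes and 154 of 12060 genes. Counts thinned to the smallest library gave 1 of 28, 2 of 84 and 160 of 11789.

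With each library left out in turn, between 0 and 1 of the 28 or 29 genes tested were called. Of the 87 to 90 other pathway genes tested, 2 or 3 were called, and over all genes 80 to 177 of 12524 to 12679. The smallest of the all-gene counts, 92 of 12566, 80 of 12524 and 87 of 12528, came without NAM/PN 1, vehicle 2 and vehicle 4. Pygm and Tkt were called in every fit. With a library left out, edgeR also called Egln3 without vehicle 1 (adjusted p = 0.0495 in edgeR's quasi-likelihood test), and Rpia without NAM/PN 2. The median log2 fold change of the 28 genes was between -0.29 and -0.064 with a library left out and between -0.20 and -0.18 under the other settings. Slc2a4, Fbp2 and Aldoc had too few counts to compare at this depth. For Gapdh, with its near-identical copies, and Phkg1, which overlaps Chchd2, how such reads were counted was not given in the sources used here, so their low counts cannot be put down to depth.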
